A study of Mus musculus with 29 samples.

Results

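Translation initiation factors (eIF) and elongation factors (eEF) are the proteins that bring ribosomes to messenger RNAs and move them along. They were taken here as all genes whose symbol begins with Eif and a digit from 1 to 6, or with Eef1 or Eef2. By this rule 65 of the 21819 genes in the B cell files and 62 of the 21675 genes in the fibroblast files are members. A total of 60 genes are in both, and 67 in either. The rule reads symbols only, so it also takes in regulators that are not factors themselves, which are the kinases of eIF2, the kinase of eEF2, the eIF4E-binding proteins and the eIF4E transporter 4E-T. It takes in 4 Argonaute genes as well, listed in the B cell files under their older symbols Eif2c1 to Eif2c4, which act in RNA silencing and not in translation initiation. Eif2c1 to Eif2c4 and Eif3j are in the B cell files and not in the fibroblast files, while Eif2d and Eif3j1 are in the fibroblast files and not in the B cell files.

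RNA was sequenced in 29 mouse libraries with Myc, the product of a growth-promoting proto-oncogene, raised by a transgene or through an inducible protein. Tg_lymphnode (n = 3) is lymph node tissue of Eμ-myc transgenic mice, pressed to a cell suspension and used with no purification. Tg_spleen (n = 4) is spleen B cells of transgenic mice and WT_spleen (n = 4) is spleen B cells of non-transgenic mice. Both spleen groups came from C57BL/6 animals of 6 to 8 weeks and were enriched with B220 beads, B220 being a surface protein of B cells. The transgene places Myc under an immunoglobulin enhancer, which acts in the B lineage. The fibroblasts are 3T9 cells, an embryonic line of mixed strain in which both copies of c-myc carry loxP sites, and all of them were infected with MycER, a Myc protein held inactive until it binds 4-hydroxytamoxifen (OHT). They were sampled after 0 h with ethanol and after 4, 8 and 16 h with 400 nM OHT (OHT_0h, OHT_4h, OHT_8h and OHT_16h, n = 4 each). Newly made RNA of the same cells was labelled with 300 µM 4-thiouridine (4sU) for 10 min in 1 library at 4 h and 1 at 0 h. Nothing in the labels says whether replicates were separate animals or cultures, so p-values measure the spread between these libraries, which may be technical.

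Values are FPKM, fragments counted per kilobase of gene and scaled to the size of the library. Sequencing depth is not stated, and the spacing of the lowest values gives a denominator of about 828000 to 1470000 reads in the B cell files, 16900000 to 17400000 in the total RNA fibroblast files and 24400000 to 27800000 in the 4sU files. Myc itself was listed at 1759 to 2179 FPKM in Tg_lymphnode and 1017 to 2408 in Tg_spleen, against 190.7 to 273.3 in WT_spleen. Tg_lymphnode replicate 3 stood apart: 7 B cell markers summed to 1354 FPKM in it, against 17250 and 19170 in the other Tg_lymphnode libraries and 37290 to 41690 in WT_spleen. Its 6 T cell markers summed to 9924, against 317.3 and 855.9 in the other Tg_lymphnode libraries and 131.6 to 264.9 in WT_spleen, and its 3 plasmacytoid dendritic cell markers to 10830, against 293.5 to 501.6 in WT_spleen. All Tg_lymphnode libraries held marker RNA of pancreas (1545 to 7814 FPKM, against 45.3 to 144.6 in WT_spleen), salivary gland (1155 to 6758, against 2 to 4) and connective tissue (422.1 to 616.1, against 5.4 to 7.8). In Tg_spleen the B cell markers summed to 23240 to 36210. In such bulk samples, fewer cells of a type and less RNA per cell cannot be told apart.

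Translation starts when eIF2 delivers the initiator tRNA to the small ribosomal subunit, and eIF1, eIF1A and eIF3 bind the same subunit. The cap-binding complex eIF4F, built from the cap-binding protein eIF4E, the scaffold eIF4G and the helicase eIF4A, recruits the loaded subunit to the messenger RNA. Phosphorylation of eIF2 by its kinases blocks the exchange factor eIF2B and lowers initiation, and the eIF4E-binding proteins (4E-BP) keep eIF4E away from eIF4G until mTOR phosphorylates them. After the subunits join, eEF1A brings aminoacyl-tRNAs, the eEF1B subunits reload it with GTP, eEF2 moves the ribosome on by a codon, and the eEF2 kinase inactivates eEF2. Myc is known to bind the sequence CACGTG, called an E-box, as a pair with Max, and genes for ribosomes and translation factors are among those it is known for.

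The sequence CACGTG, which reads the same on both strands, was searched in the promoters of the members, taken from RefSeq (mouse build GRCm38.p6) as 250 bases before to 50 bases after each annotated start. Of the 67 members 49 had a promoter in the table, and 12 of these (24.5%) held the hexamer, compared with 2187 of 27025 genes (8.09%). The 27025 genes were not matched to the members for expression level or base composition, and the difference in share was not tested. The 12 were Eif4e, Eif4a1, Eif4g1, Eif4h, Eif5a, Eif5a2, Eif1b, Eif3a, Eif3f, Eif3k, Eef2 and Eef2k. Windows are printed for the cap-binding complex and its cofactor Eif4h, for Eif5a, which has the largest rise of any member in the B cell comparisons, and for eEF2 with its kinase. The motif search and these genes were chosen after the differences were known, so the windows support nothing on their own. They lie upstream of the start, and 1 match per gene is shown with up to 30 bases on either side, in the direction of the gene, with the hexamer in capitals. The windows lie at chr3:138527174-138527239 for Eif4e (plus strand, hexamer 64 bases before the start), chr11:69672577-69672642 for Eif4a1 (minus strand, 189 bases before), chr16:20672643-20672708 for Eif4g1 (plus, 54 before), chr5:134639470-134639535 for Eif4h (minus, 96 before), chr11:69921425-69921490 for Eif5a (minus, 74 before), chr10:81176558-81176623 for Eef2 (plus, 43 before) and chr7:120842770-120842830 for Eef2k (plus, 31 before).
Eif4e: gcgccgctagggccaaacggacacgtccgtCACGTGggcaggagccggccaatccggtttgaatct
Eif4a1: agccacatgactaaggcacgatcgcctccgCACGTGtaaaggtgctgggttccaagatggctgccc
Eif4g1: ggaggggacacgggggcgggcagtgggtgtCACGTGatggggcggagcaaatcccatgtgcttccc
Eif4h: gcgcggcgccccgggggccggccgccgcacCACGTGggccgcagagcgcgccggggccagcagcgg
Eif5a: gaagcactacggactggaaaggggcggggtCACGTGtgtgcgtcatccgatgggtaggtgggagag
Eef2: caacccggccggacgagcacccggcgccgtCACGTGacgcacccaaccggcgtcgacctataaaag
Eef2k: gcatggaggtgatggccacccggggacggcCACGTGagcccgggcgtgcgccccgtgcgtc
A match describes these letters and is not a measured binding site.

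The factors were among the most abundant messages of the B cells. Within WT_spleen, Eef1a1 had the highest level of the members at 27250 ± 6339 FPKM (SD, n = 4), followed by Eef2 at 8507 ± 814.7 and Eef1b2 at 2536 ± 305.2. These levels lie at the 99.95th, 99.86th and 99.43rd percentile of all genes, and their ranges do not overlap. Next came Eif3k (1427 ± 128.7) and Eif4g2 (1413 ± 137.3), whose ranges overlap. Eef1a2, the form of eEF1A known from muscle and neurons, reached at most 1.3 FPKM in any of these libraries, and Eif4e1b, known from oocytes, was listed at 0 in all 11. Both were too low to test, which left 63 members for the B cell comparisons. Eef1a1 and Eif4a1 have processed copies elsewhere in the genome, and how the authors assigned shared reads is not given in the sources used here. Gapdh, another gene with many copies, was listed at only 39.1 to 169 FPKM in these files, beside 16250 to 39410 for Actb.

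In spleen B cells of Eμ-myc mice most translation factors stood above their level in wild-type B cells. Of 63 members tested, 36 were higher in Tg_spleen, 2 were lower and 25 did not pass the test (limma, adjusted p under 0.05 over all genes), while 15.7% of all 14021 genes were higher and 12.2% lower. The median log2 difference was 0.61 over the members and −0.05 over all genes. Among genes with a mean of at least 100 FPKM, a band chosen after the data were seen and holding 58 of the members, 21.1% were higher and 12.8% lower. When the kinases, 4E-BPs, 4E-T and Argonautes were set aside, 33 of 50 factors were higher and 0 were lower (39 at an unadjusted p under 0.05). The libraries of the groups did not overlap for 39 members that were higher and 2 that were lower in Tg_spleen, against 16.9% and 14.7% of all genes. The count of higher members was 20 without WT_spleen replicate 1, 19 without WT_spleen replicate 4 and 23 without Tg_spleen replicate 5. The spleen libraries also split by Rpph1, the RNA of RNase P, which was listed at 545353 to 735331 FPKM in 4 libraries and at 153474 to 215865 in the other 4, with 2 libraries of each group on each side. Within the high libraries 16 members were higher and 1 lower, and within the low libraries 23 were higher and 1 lower. Markers of other cells moved too: the 5 NK cell markers summed to 39.7 to 203.9 FPKM in Tg_spleen, against 252.6 to 443.4 in WT_spleen, with 4 of 5 lower, and the 3 endothelial markers to 484.2 to 812.5, against 1031 to 1198, with 1 of 3 lower. Of the 7 B cell markers 3 were lower, and of the 3 plasmacytoid dendritic cell markers 2, as were 2 of the 6 pancreas acinar markers and 1 of the 3 listed salivary gland markers. Their part in the result was not tested.

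Lymph nodes of transgenic mice were compared with the same WT_spleen libraries, so the pair of comparisons share their controls. Of 63 members, 25 were higher in Tg_lymphnode and 4 lower, while 20.3% of 14758 genes were higher and 17.7% lower. The median log2 difference was 0.39 over the members and 0.05 over all genes, and at levels of at least 100 FPKM 22.7% of genes were higher and 22.9% lower. The libraries of the groups did not overlap for 30 members that were higher and 4 that were lower in Tg_lymphnode, against 24% and 21.4% of all genes. Without Tg_lymphnode replicate 3, which held few B cell markers, 25 members were higher and 5 lower. Without any 1 of the 4 WT_spleen libraries 2 members were lower. Beside these counts stand the marker sums given above. All 7 connective tissue, all 6 pancreas and all 3 listed salivary gland markers were higher in Tg_lymphnode. So were 2 of 6 T cell markers, 2 of 4 tested erythroid markers and 1 of 3 plasmacytoid dendritic cell markers. Lower were 3 of 7 B cell, 4 of 5 NK cell and 1 of 3 endothelial markers, and of 6 macrophage markers 4 were lower and 1 higher. The part of these cells in the result was not tested.

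**Figure D1:**
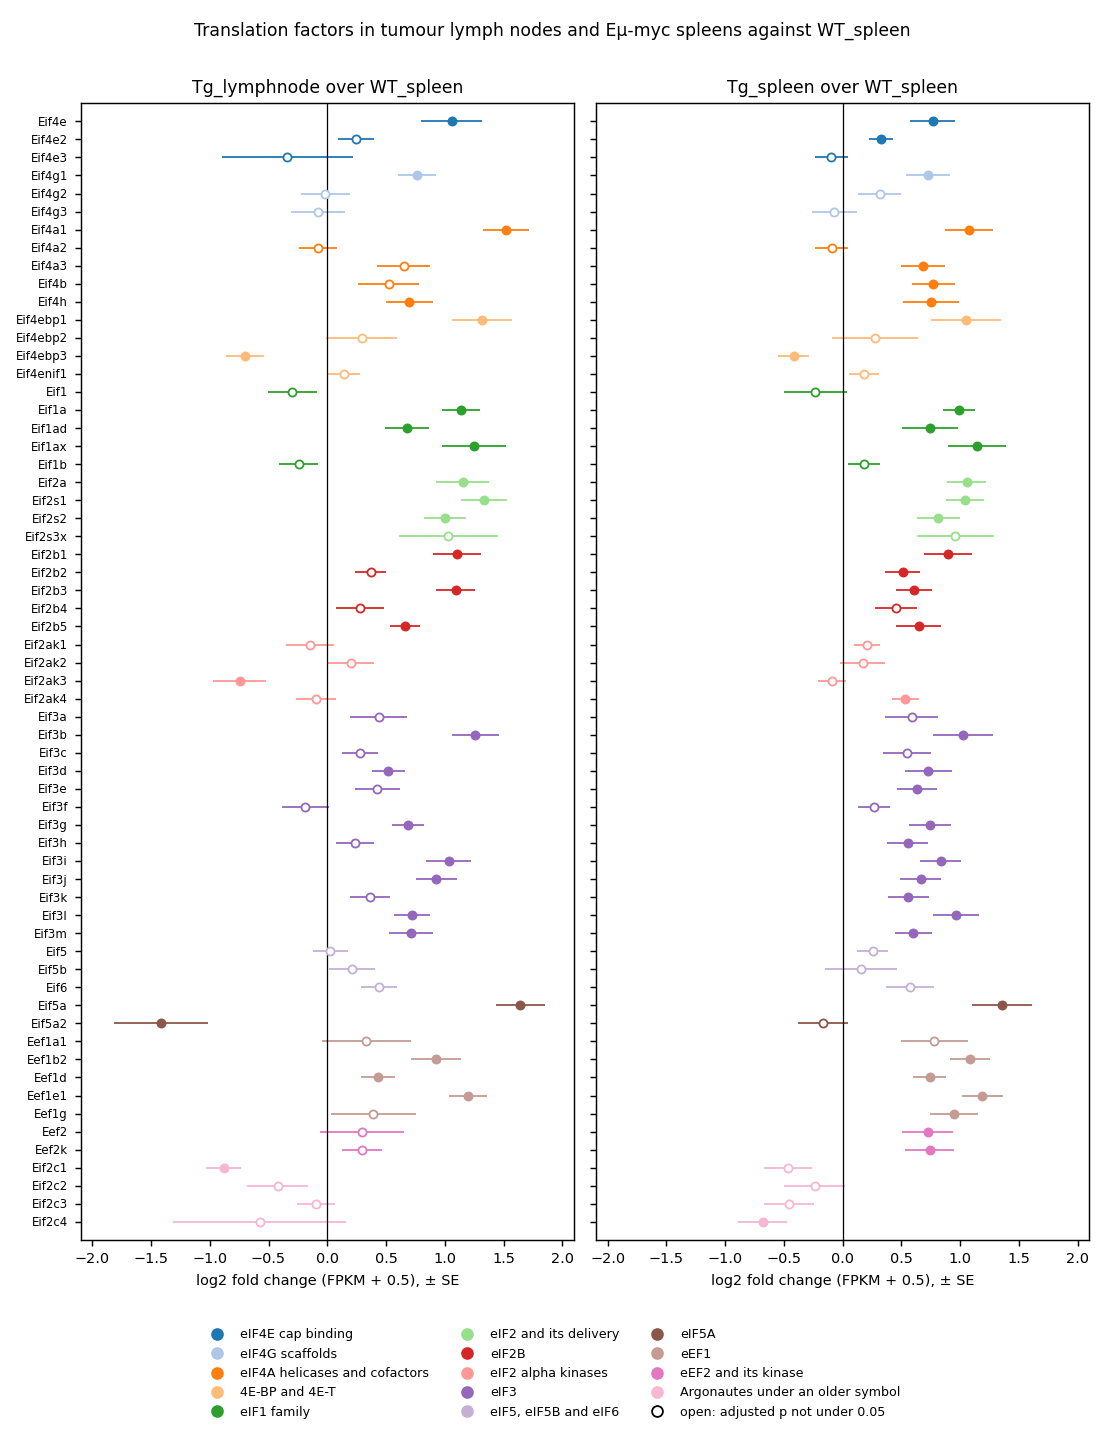
Log2 fold change of FPKM + 0.5, with its SE, for 62 members in Tg_lymphnode over WT_spleen (left) and Tg_spleen over WT_spleen (right), with colours for role classes, filled points for members that passed limma at an adjusted p under 0.05 and open points for the others. Eif2s3y, which is Y-linked, is left out. Most points in eIF1, eIF2, eIF2B, eIF3, eIF4A and eEF1 lie right of 0, 4E-BP and kinase genes lie on both sides, and the 4 Argonaute genes lie left of 0.

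The cap-binding complex held some of the largest rises, and not in all of its genes. Eif4a1, the main eIF4A helicase, had 1668, 2069 and 1894 FPKM in Tg_lymphnode and 971.0, 1416, 1635 and 1561 FPKM in Tg_spleen, against 569.3, 698.8, 544.9 and 825.1 FPKM in WT_spleen. All 7 transgenic libraries lay above all 4 wild-type ones, with log2 differences of 1.52 ± 0.19 (SE, limma adjusted p = 0.000876) for Tg_lymphnode and 1.07 ± 0.21 (limma adjusted p = 0.00668) for Tg_spleen. Eif4a2, the second helicase, had 1167, 1032 and 1285 FPKM in Tg_lymphnode and 1293, 1141, 1008 and 1150.5 FPKM in Tg_spleen, against 1282, 1115, 1134 and 1372 FPKM in WT_spleen, and these overlap. Its log2 differences were −0.08 (limma adjusted p = 0.735) and −0.10 (limma adjusted p = 0.643). Within each library the ratio of Eif4a1 to Eif4a2 was 1.43 to 2.00 in Tg_lymphnode and 0.751 to 1.62 in Tg_spleen, against 0.444 to 0.627 in WT_spleen. Eif4a1 thus outnumbered Eif4a2 per kilobase in 6 of 7 transgenic libraries and in 0 of 4 wild-type ones. The ratio differed by 1.17 on the log2 scale between Tg_spleen and WT_spleen (exact permutation test, two-sided, p = 0.0286, the smallest that 4 against 4 libraries allow, and 0.333 when adjusted over the 35 ratio tests run). It differed by 1.60 between Tg_lymphnode and WT_spleen (exact permutation p = 0.0571, the smallest that 3 against 4 allow, adjusted p = 0.333). Being a ratio within a library, it does not move with the library's scale.

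Eif4e, the cap-binding protein, had 517.9, 292.2 and 241.2 FPKM in Tg_lymphnode and 209.7, 223.6, 357.2 and 320.6 FPKM in Tg_spleen, against 165.6, 151.7, 135.9 and 187.3 FPKM in WT_spleen. No transgenic library reached down into the wild-type range. The log2 differences were 1.06 ± 0.26 for Tg_lymphnode (limma adjusted p = 0.0143) and 0.77 ± 0.19 for Tg_spleen (limma adjusted p = 0.0175, and 0.057 without WT_spleen replicate 4). Eif4e2, a cap-binding relative that represses translation, had 255.8, 343.9 and 242.8 FPKM in Tg_lymphnode and 281.1, 282.9, 290.7 and 320.8 FPKM in Tg_spleen, against 227.2, 236.1, 226.6 and 246.7 FPKM in WT_spleen. The log2 difference was 0.33 in Tg_spleen (limma adjusted p = 0.0428), a call kept in 1 of 8 fits that left out a library, and differed by 0.25 in Tg_lymphnode (limma adjusted p = 0.235). Eif4e3 differed by −0.34 in Tg_lymphnode (limma adjusted p = 0.661) and −0.10 in Tg_spleen (limma adjusted p = 0.641).

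Among the scaffolds, Eif4g1 had 1658, 1355 and 1210 FPKM in Tg_lymphnode and 1132, 1133, 1944 and 1374 FPKM in Tg_spleen, against 811.7, 777.9, 869.7 and 830.8 FPKM in WT_spleen. The groups were apart, and the log2 differences were 0.76 ± 0.16 (limma adjusted p = 0.00818) for Tg_lymphnode and 0.73 ± 0.19 (limma adjusted p = 0.0194) for Tg_spleen, where the call was lost without WT_spleen replicate 1 or 3 (highest limma adjusted p = 0.0549). Eif4g2, which lacks the eIF4E-binding part and serves cap-independent starts, had 1755, 1435 and 1070 FPKM in Tg_lymphnode and 1619, 1638, 2370 and 1490 FPKM in Tg_spleen, against 1531, 1226, 1396 and 1498 FPKM in WT_spleen, and these overlap. The ratio of Eif4g1 to Eif4g2 was 0.944 to 1.13 in Tg_lymphnode and 0.692 to 0.923 in Tg_spleen, against 0.530 to 0.635 in WT_spleen. These 3 ranges do not overlap. The log2 differences in the ratio were 0.78 for Tg_lymphnode against WT_spleen (exact permutation p = 0.0571), 0.41 for Tg_spleen against WT_spleen (exact permutation p = 0.0286) and 0.37 for Tg_lymphnode against Tg_spleen (exact permutation p = 0.0571), each with an adjusted p of 0.333. Of the helicase cofactors, Eif4h was higher by 0.70 in Tg_lymphnode (limma adjusted p = 0.026) and 0.75 in Tg_spleen (limma adjusted p = 0.0404), and Eif4b by 0.77 in Tg_spleen (limma adjusted p = 0.0146).

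**Figure D2:**
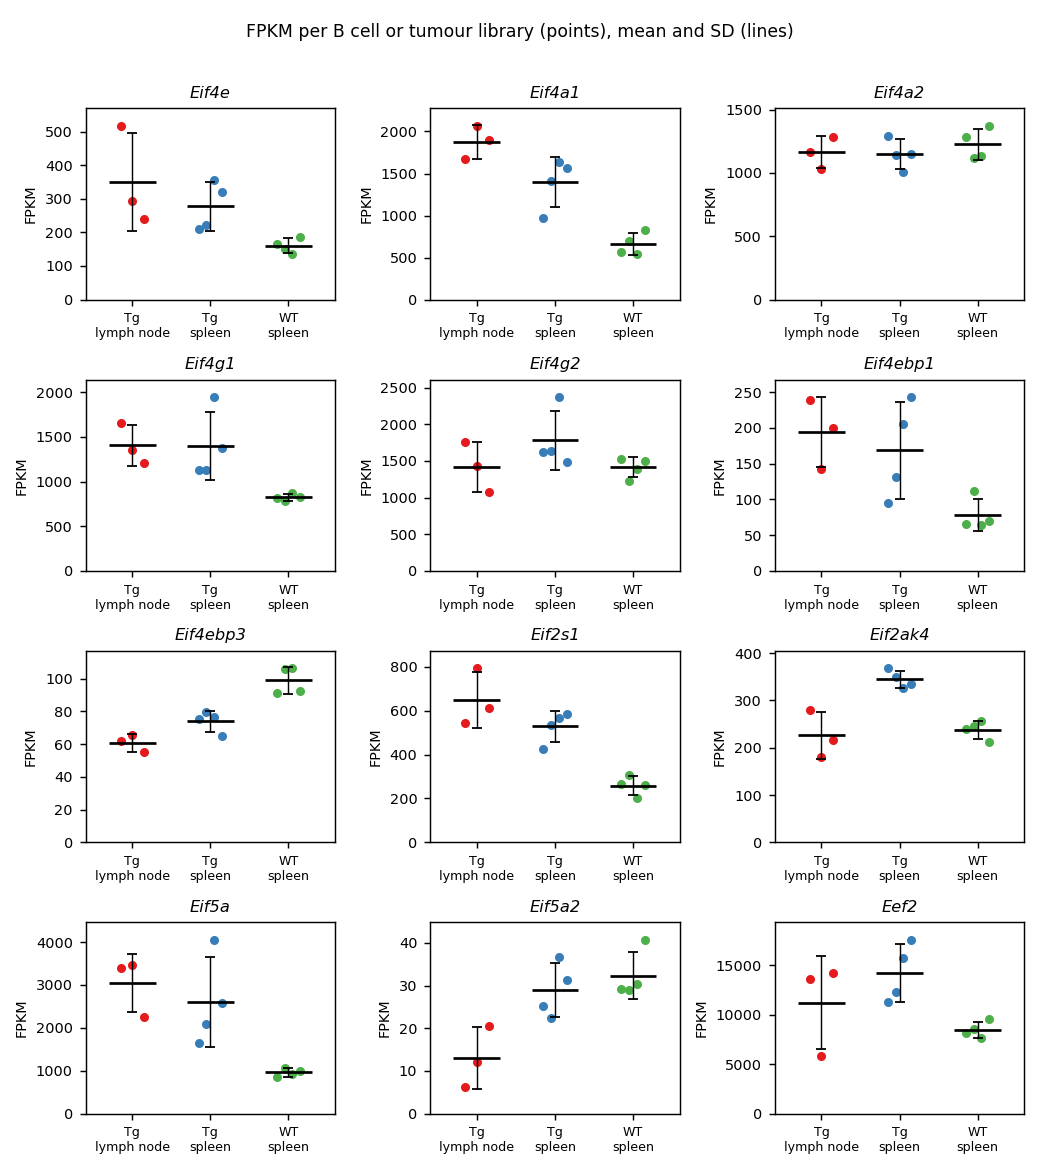
FPKM of 12 members in each library (points) with the mean and SD (lines), for Tg_lymphnode (3 libraries), Tg_spleen (4) and WT_spleen (4), each panel starting at 0. Eif4e, Eif4a1, Eif4g1, Eif2s1 and Eif5a are higher in every transgenic library than in any wild-type one, Eif4ebp3 is lower in every one, and Eif4a2 and Eif4g2 overlap.

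The eIF2 complex and its exchange factor rose in most of their genes. Eif2s1, the alpha subunit that the kinases phosphorylate, had 543.6, 792.7 and 614.1 FPKM in Tg_lymphnode and 424.6, 536.6, 567.8 and 585.6 FPKM in Tg_spleen, against 264.1, 305.0, 199.9 and 261.3 FPKM in WT_spleen. The groups did not overlap, with log2 differences of 1.33 ± 0.19 (limma adjusted p = 0.00154) for Tg_lymphnode and 1.04 ± 0.16 (limma adjusted p = 0.00351) for Tg_spleen. The beta subunit Eif2s2 was higher by 1.00 in Tg_lymphnode (limma adjusted p = 0.00409) and 0.81 in Tg_spleen (limma adjusted p = 0.0123). The gamma subunit has an X-linked and a Y-linked gene. Eif2s3x had 136.1, 250.2 and 275.7 FPKM in Tg_lymphnode and 173.3, 269.0, 157.8 and 220.4 FPKM in Tg_spleen, against 78.1, 116.2, 62.4 and 198.9 FPKM in WT_spleen, which overlap at WT_spleen replicate 6. Eif2s3y was at 0 to 1.3 FPKM in Tg_lymphnode replicates 2 and 3, Tg_spleen replicates 2 and 3 and WT_spleen replicate 6, and at 291.9 to 596.8 FPKM in the other 6 libraries. The share of libraries with Eif2s3y therefore differs between the groups, and its part in the results was not tested. Of the 5 eIF2B subunits, 3 were higher in Tg_lymphnode and 4 in Tg_spleen, beside 20.3% and 15.7% of all genes. Eif2b1 led them, at 1.103 in Tg_lymphnode (limma adjusted p = 0.00429) and 0.90 in Tg_spleen (limma adjusted p = 0.0125). Eif2b5, the catalytic subunit, had 515.1, 552.0 and 460.1 FPKM in Tg_lymphnode and 403.4, 377.9, 654.5 and 632.6 FPKM in Tg_spleen, against 300.6, 311.2, 326.1 and 343.7 FPKM in WT_spleen, with no overlap. It was higher by 0.67 ± 0.13 (limma adjusted p = 0.00541) and 0.65 ± 0.19 (limma adjusted p = 0.0334).

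The eIF3 complex, the largest initiation factor, was raised in 10 of 13 genes in Tg_spleen and 7 of 13 in Tg_lymphnode, and 0 were lower in either. Of all genes 15.7% were higher and 12.2% lower in Tg_spleen, and 20.3% higher and 17.7% lower in Tg_lymphnode. The largest difference in the complex was that of Eif3b, a core subunit, at 1.26 ± 0.20 in Tg_lymphnode (limma adjusted p = 0.00222) and 1.02 ± 0.26 in Tg_spleen (limma adjusted p = 0.018). Eif3b had 1445, 1702 and 1023 FPKM in Tg_lymphnode and 825.3, 1062, 2082 and 970.2 FPKM in Tg_spleen, against 517.7, 540.8, 607.7 and 608.5 FPKM in WT_spleen. Eif3i was higher by 1.03 in Tg_lymphnode (limma adjusted p = 0.00446) and 0.83 in Tg_spleen (limma adjusted p = 0.00938). The lowest log2 difference in the complex was that of Eif3f, at −0.19 in Tg_lymphnode (limma adjusted p = 0.496) and 0.27 in Tg_spleen (limma adjusted p = 0.163). Eif3k, the most abundant subunit in both spleen groups, had 1696, 1735 and 2089 FPKM in Tg_lymphnode and 1825, 1950.3, 1969 and 2759.5 FPKM in Tg_spleen, against 1444, 1418, 1265 and 1579 FPKM in WT_spleen. Its log2 difference was 0.56 ± 0.17 in Tg_spleen (limma adjusted p = 0.0369), a call kept in 2 of 8 fits that left out a library.

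Of the factors that scan for the start codon, Eif1a and Eif1ax, which encode forms of eIF1A, and Eif1ad, a protein with an eIF1A-like domain, rose in both comparisons, whereas Eif1 and Eif1b did not pass the test. Eif1ax had 1009, 1268 and 681.1 FPKM in Tg_lymphnode and 630.8, 753.0, 1158 and 1131 FPKM in Tg_spleen, against 446.1, 436.0, 274.6 and 487.3 FPKM in WT_spleen. Each transgenic library lay above the wild-type ones, and the log2 differences were 1.25 ± 0.27 (limma adjusted p = 0.00871) and 1.14 ± 0.25 (limma adjusted p = 0.0102). Eif1, which guards the choice of the start codon, had 439.1, 477.0 and 331.4 FPKM in Tg_lymphnode and 512.5, 616.9, 427.8 and 250.6 FPKM in Tg_spleen, against 547.6, 656.9, 420.7 and 428.9 FPKM in WT_spleen. These overlap, with log2 differences of −0.30 (limma adjusted p = 0.297) and −0.23 (limma adjusted p = 0.534). The class of Eif5, Eif5b and Eif6 gave 0 calls in either comparison with WT_spleen (limma, 1 of 3 at an unadjusted p under 0.05 in each, which was Eif6). Eif5, which triggers GTP hydrolysis by eIF2, had 1011, 1087 and 1049 FPKM in Tg_lymphnode and 1284, 1186, 1127 and 1329 FPKM in Tg_spleen, against 1039, 1060.1, 914.6 and 1119 FPKM in WT_spleen. It differed by 0.03 in Tg_lymphnode (limma adjusted p = 0.907) and 0.25 in Tg_spleen (limma adjusted p = 0.177), and Eif6 by 0.44 (limma adjusted p = 0.0549) and 0.57 (limma adjusted p = 0.0612).

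Eif5a showed the largest rise of any member in both comparisons. It encodes eIF5A, which carries the modified amino acid hypusine and helps ribosomes through difficult sequences. It had 3399.5, 3473 and 2256 FPKM in Tg_lymphnode and 1636, 2089, 4051 and 2590.0 FPKM in Tg_spleen, against 851.9, 1069, 918.2 and 1000.5 FPKM in WT_spleen. The lowest transgenic library was well above the highest wild-type one, and the log2 differences were 1.64 ± 0.21 (limma adjusted p = 0.000856) and 1.35 ± 0.26 (limma adjusted p = 0.00633). Its paralogue Eif5a2, far lower in these cells, had 6.3, 12.2 and 20.6 FPKM in Tg_lymphnode and 25.3, 22.5, 36.7 and 31.4 FPKM in Tg_spleen, against 29.3, 29.0, 30.4 and 40.7 FPKM in WT_spleen. It was lower in Tg_lymphnode by a log2 difference of −1.41 ± 0.40 (limma adjusted p = 0.0248), a call that 5 of 7 fits leaving out a library lost (highest limma adjusted p = 0.0685). In Tg_spleen the difference was −0.17 (limma adjusted p = 0.581).

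Elongation factors were raised in Tg_spleen, and less evenly in Tg_lymphnode. All 5 eEF1 genes tested had groups without overlap in Tg_spleen and 4 passed the test, while 3 of 5 passed in Tg_lymphnode. Of all genes 16.9% were higher without overlap and 15.7% passed as higher in Tg_spleen, and 20.3% passed as higher in Tg_lymphnode. Eef1b2, an exchange subunit of eEF1, had 4625, 4141 and 5735 FPKM in Tg_lymphnode and 4978, 5339.7, 5089.7 and 6031 FPKM in Tg_spleen, against 2610.3, 2433, 2187 and 2912 FPKM in WT_spleen. It was higher by 0.93 ± 0.21 in Tg_lymphnode (limma adjusted p = 0.0106) and 1.08 ± 0.17 in Tg_spleen (limma adjusted p = 0.00351). Eef1e1, also known as AIMP3, a scaffold of the aminoacyl-tRNA synthetase complex, had 410.8, 316.5 and 447.1 FPKM in Tg_lymphnode and 288.6, 359.5, 444.5 and 477.2 FPKM in Tg_spleen, against 191.8, 160.9, 147.7 and 177.5 FPKM in WT_spleen. It was higher by 1.20 ± 0.17 (limma adjusted p = 0.00123) and 1.19 ± 0.17 (limma adjusted p = 0.00314), and both calls held in every fit that left out a library.

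Eef1a1 had 28993, 24657 and 52966 FPKM in Tg_lymphnode and 38040.2, 48910.2, 38655.5 and 61335 FPKM in Tg_spleen, against 24979, 29655, 19781 and 34586 FPKM in WT_spleen. The Tg_lymphnode libraries overlap with WT_spleen and the Tg_spleen ones do not, but the log2 difference of 0.78 ± 0.28 in Tg_spleen missed the threshold (limma adjusted p = 0.0648). Eef2 had 13651, 5796.5 and 14203 FPKM in Tg_lymphnode and 11267, 12259.9, 15747 and 17587 FPKM in Tg_spleen, against 8139.8, 8596, 7694 and 9596.5 FPKM in WT_spleen. Tg_lymphnode replicate 2 was the lowest of all 11 libraries for Eef2 and Eef1g, the other Tg_lymphnode libraries lying above the wild-type range. Eef2 was higher by 0.72 ± 0.22 in Tg_spleen (limma adjusted p = 0.0338), a call kept in 2 of 8 fits that left out a library, and differed by 0.29 ± 0.35 in Tg_lymphnode (limma adjusted p = 0.543). The ratio of Eef1a1 to Eef2 was 2.12 to 4.25 in Tg_lymphnode and 2.46 to 3.99 in Tg_spleen, against 2.57 to 3.60 in WT_spleen, which overlap.

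The regulators did not move as a group. Eif4ebp1, which encodes the best known 4E-BP, had 239.7, 142.7 and 200.4 FPKM in Tg_lymphnode and 95, 131.2, 205.2 and 243.1 FPKM in Tg_spleen, against 65.3, 112.0, 64.6 and 70.5 FPKM in WT_spleen. Tg_lymphnode was clear of WT_spleen, whereas Tg_spleen replicate 2 fell below WT_spleen replicate 3. It was higher by 1.32 ± 0.26 in Tg_lymphnode (limma adjusted p = 0.00577) and 1.05 ± 0.30 in Tg_spleen (limma adjusted p = 0.028, a call kept in 3 of 8 fits that left out a library). Eif4ebp3 had 61.8, 65.6 and 54.9 FPKM in Tg_lymphnode and 75.5, 79.3, 76.6 and 64.7 FPKM in Tg_spleen, against 91.3, 105.9, 106.2 and 92.4 FPKM in WT_spleen. It was lower without overlap, by a log2 difference of −0.70 ± 0.16 in Tg_lymphnode (limma adjusted p = 0.0106) and −0.42 ± 0.13 in Tg_spleen (limma adjusted p = 0.0392, kept in 1 of 8 such fits). Eif4ebp2 had 366.6, 182.3 and 165.8 FPKM in Tg_lymphnode and 218.0, 230.6, 440.2 and 106.2 FPKM in Tg_spleen, against 209.0, 171.9, 228.3 and 134.0 FPKM in WT_spleen, which overlap. It differed by 0.29 (limma adjusted p = 0.483) and 0.27 (limma adjusted p = 0.594). Eif4enif1, which encodes 4E-T, had 368.3, 427.1 and 331.6 FPKM in Tg_lymphnode and 347.6, 354.2, 459.9 and 379.8 FPKM in Tg_spleen, against 338.8, 312.2, 357.1 and 345.2 FPKM in WT_spleen, with log2 differences of 0.14 (limma adjusted p = 0.431) and 0.18 (limma adjusted p = 0.303). The ratio of Eif4e to Eif4ebp1 was 1.20 to 2.16 in Tg_lymphnode and 1.32 to 2.21 in Tg_spleen, against 1.35 to 2.66 in WT_spleen, and overlaps in both comparisons.

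The 4 kinases of eIF2 gave 1 call in each comparison. It was a higher one in Tg_spleen, where 15.7% of all genes were higher, and a lower one in Tg_lymphnode, where 17.7% were lower. Eif2ak4, or GCN2, which senses amino acid shortage, had 280.6, 181.4 and 216.6 FPKM in Tg_lymphnode and 367.7, 350.5, 326.1 and 334.9 FPKM in Tg_spleen, against 238.9, 246.1, 256.6 and 211.7 FPKM in WT_spleen. It was higher by 0.53 ± 0.11 in Tg_spleen (limma adjusted p = 0.00917), where the groups do not overlap, and differed by −0.09 in Tg_lymphnode (limma adjusted p = 0.692). Eif2ak3, or PERK, which senses unfolded proteins in the endoplasmic reticulum, had 347.3, 186.8 and 335.8 FPKM in Tg_lymphnode and 451.8, 442.6, 391.2 and 483.0 FPKM in Tg_spleen, against 487.7, 492.5, 419.6 and 480.3 FPKM in WT_spleen. It was lower in Tg_lymphnode by −0.75 ± 0.23 (limma adjusted p = 0.0321), a call lost without any 1 of the 4 WT_spleen libraries (highest limma adjusted p = 0.0776). Eef2k, the kinase of eEF2, had 109.7, 107.5 and 155.1 FPKM in Tg_lymphnode and 107.5, 158.4, 229.2 and 197.6 FPKM in Tg_spleen, against 97.7, 101.3, 103.5 and 96.2 FPKM in WT_spleen. It was higher by 0.74 ± 0.21 in Tg_spleen (limma adjusted p = 0.0284, kept in 1 of 8 fits that left out a library) and differed by 0.29 in Tg_lymphnode (limma adjusted p = 0.207).

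All 4 Argonaute genes had log2 differences below 0 in both comparisons, and 1 passed as lower in each. Of all genes, 7690 of 14758 lay above 0 in Tg_lymphnode and 6555 of 14021 in Tg_spleen, and 17.7% and 12.2% were lower. A count of 1 in 4 does not stand apart from these shares. Eif2c2, the most abundant of them in WT_spleen, had 267.2, 225.8 and 133.6 FPKM in Tg_lymphnode and 277.8, 247.3, 302.4 and 130.2 FPKM in Tg_spleen, against 315.4, 258.2, 311.7 and 206.7 FPKM in WT_spleen, which overlap. Eif2c1 was lower in Tg_lymphnode, with 129.7, 134.3 and 117.1 FPKM against 260.3, 213.6, 266.5 and 202.3 FPKM in WT_spleen, a log2 difference of −0.88 ± 0.15 (limma adjusted p = 0.00314). Eif2c4 was lower in Tg_spleen, with 31.3, 29.1, 22.6 and 18.5 FPKM against 42.4, 34.4, 42.6 and 41.9 FPKM in WT_spleen, a log2 difference of −0.68 ± 0.21 (limma adjusted p = 0.0362, kept in 2 of 8 fits that left out a library). Eif2c4 was at 104.1 FPKM in Tg_lymphnode replicate 3, against 22.9 and 7.8 in the other Tg_lymphnode libraries.

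Between the transgenic groups no member passed the test. Of 63 members 0 were higher and 0 lower in Tg_lymphnode relative to Tg_spleen (limma, 5 at an unadjusted p under 0.05), where 3.56% of 14692 genes were higher and 2.39% lower. Groups did not overlap for 2 members higher and 6 lower, against 11.8% and 10.6% of all genes. Quantile normalization and median ratio scaling gave 0 as well. Without Tg_lymphnode replicate 3 the count of lower members was 1, which was Eif5a2, and in a fit of all B cell groups it was 2, with Eif5a2 among them. The lowest adjusted p was that of Eif2ak4, with a log2 difference of −0.63 ± 0.19 (limma adjusted p = 0.0927). A p above the threshold does not show that the groups were alike.

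Other genes of the pathway, on lists chosen with earlier results of these data known, gave the following counts, to be read against 20.3% of all genes higher and 17.7% lower in Tg_lymphnode, and 15.7% higher and 12.2% lower in Tg_spleen. Of 9 termination and recycling factors 4 were higher in Tg_lymphnode and 4 in Tg_spleen, with Etf1, the release factor that reads stop codons, at 0.97 in Tg_lymphnode (limma adjusted p = 0.00262) and 1.03 in Tg_spleen (limma adjusted p = 0.0045). Abce1, which splits ribosomes after termination, was higher by 0.88 (limma adjusted p = 0.00238) and 0.91 (limma adjusted p = 0.00356). Of 7 poly(A)-binding proteins and partners, 2 were higher and 2 lower in Tg_lymphnode, and 2 were higher in Tg_spleen. Larp1, a binder of messages for ribosomal proteins and translation factors, was at 744.5 ± 97.7 FPKM in Tg_lymphnode (SD, n = 3) and 574.4 ± 225.7 in Tg_spleen, against 295.6 ± 47.9 in WT_spleen (SD, n = 4 each). Pdcd4, an inhibitor of eIF4A, was lower in Tg_lymphnode, at 257.6 ± 24.6 FPKM (SD, n = 3) against 710.9 ± 84.2 in WT_spleen (SD, n = 4), a log2 difference of −1.46 (limma adjusted p = 0.000338). It was also lower than in Tg_spleen, where it had 750.0 ± 163.2 FPKM (SD, n = 4), by −1.52 (limma adjusted p = 0.00664). Of 9 mitochondrial translation factors 5 were higher in Tg_lymphnode and 3 in Tg_spleen, among them Tsfm at 0.96 in Tg_spleen (limma adjusted p = 0.0128). The hypusine and diphthamide enzymes, which modify eIF5A and eEF2, gave 1 call of 7 in each. The 4 genes of the eIF2 alpha phosphatase and Gcn2 partners gave 0 calls in Tg_spleen (limma, 0 at an unadjusted p under 0.05) and 1 lower in Tg_lymphnode, which was Ppp1r15a at −1.44 (limma adjusted p = 0.0369). mTOR with its kinases gave 1 higher of 9 in Tg_lymphnode and 0 of 9 in Tg_spleen (limma, 1 at an unadjusted p under 0.05). The shares of the enzymes and of mTOR with its kinases lay at or below those of all genes.

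The calls were also read against the CACGTG matches printed above. In Tg_spleen, 8 of the 12 members with the hexamer were higher (median log2 difference 0.72), and 19 of 34 tested members without it were higher (median 0.62). In Tg_lymphnode, 5 of 12 with it were higher (median 0.40) and 14 of 34 without it (median 0.44). All 7 genes whose windows are printed were among the 8 called in Tg_spleen, but they were chosen with these calls known, so nothing is drawn from it. Eif5a2, Eif1b, Eif3a and Eif3f hold the hexamer and were not called there. Eef1b2, Eef1e1, Eif1ax, Eif2s1 and Eif3b had no CACGTG in these windows and were called in both comparisons with WT_spleen.

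In fibroblasts few factors moved when MycER was activated. Of the 62 members, 59 were tested, since Eif4e1b, Eef1a2 and Eif2s3y stayed under the filter of 1 FPKM in 4 libraries. At 4 h 2 members were higher and 0 lower (limma, 7 at an unadjusted p under 0.05), at 8 h 1 was higher and 0 lower (5 at an unadjusted p under 0.05), and at 16 h 2 were higher and 2 lower, each time against OHT_0h, which all times share. Among all 12934 genes tested, 1.9% were higher and 2.88% lower at 4 h, 1.21% and 0.982% at 8 h, and 1.76% and 7.75% at 16 h, so the members' counts lay near the background. Groups did not overlap for 2 members higher and 1 lower at 4 h (4.37% and 8.18% of all genes), 3 higher and 1 lower at 8 h (4.65% and 8.37%), and 2 higher and 2 lower at 16 h (2.61% and 11.2%). The members' median log2 difference was −0.0026 at 4 h, 0.02 at 8 h and −0.02 at 16 h, beside −0.04, −0.06 and −0.14 over all genes. With median ratio scaling the median of all genes at 16 h was 0.05 and 5 members were higher. Between OHT_16h and OHT_4h 0 members passed (limma, 0 at an unadjusted p under 0.05), as did 0 of all genes, and 0 members were without overlap in either direction (0.0309% and 0.356% of all genes). Myc itself was lower, at 24.4 ± 3.98 FPKM at 0 h, 10.8 ± 2.84 at 4 h, 12.5 ± 2.20 at 8 h and 9.78 ± 1.41 at 16 h (SD, n = 4 each). Whether reads of the MycER transgene count toward it is not given in the sources used here.

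Eef2k, the kinase that inactivates eEF2, had the largest rise. It had 21.5, 21.0, 20.5 and 20.6 FPKM at 0 h, 34.1, 28.4, 44.9 and 31.9 at 4 h, 38.3, 30.6, 30.9 and 30.7 at 8 h, and 36.7, 29.3, 35.3 and 26.5 at 16 h. All 12 libraries with OHT lay above the 4 without it, by 0.70 ± 0.14 at 4 h (limma adjusted p = 0.00594), 0.62 ± 0.14 at 8 h (limma adjusted p = 0.0227) and 0.59 ± 0.14 at 16 h (limma adjusted p = 0.0125). At 8 h the call was lost without any 1 of the 4 OHT_0h libraries and without OHT_8h replicate 1 (highest limma adjusted p = 0.0907). Its substrate Eef2 had 57.2 to 64.6 FPKM at 0 h, 58.7 to 79.4 at 4 h, 60.9 to 75.4 at 8 h and 58.9 to 69.8 at 16 h, which overlap. Eef2k was called higher in Tg_spleen B cells and in fibroblasts, in comparisons that share no library. In Tg_spleen 36 of 63 members were called higher, and the call of Eef2k was kept in 1 of 8 fits that left out a library. In Tg_lymphnode Eef2k did not pass the test.

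Eif2b4, the delta subunit of eIF2B, had 33.8, 35.4, 35.8 and 30.2 FPKM at 0 h, 47.6, 45.4, 44.9 and 38.7 at 4 h, 40.9, 40.8, 41.0 and 43.7 at 8 h, and 45.1, 43.5, 45.1 and 48.8 at 16 h. It lay above the 0 h range in all 12 OHT libraries. The log2 differences were 0.38 ± 0.10 at 4 h (limma adjusted p = 0.036, kept in 1 of 8 fits that left out a library), 0.30 at 8 h (limma adjusted p = 0.16) and 0.43 ± 0.10 at 16 h (limma adjusted p = 0.0111). Eif2ak2, or PKR, the kinase that double-stranded RNA activates, had 42.1, 35.9, 42.6 and 33.0 FPKM at 0 h, 22.7, 25.9, 30.3 and 25.1 at 4 h, 28.9, 24.8, 27.4 and 17.0 at 8 h, and 27.7, 18.5, 28.8 and 16.4 at 16 h. Every OHT library was below every 0 h library, by −0.55 at 4 h (limma adjusted p = 0.0993), −0.66 at 8 h (limma adjusted p = 0.0683) and −0.77 ± 0.18 at 16 h (limma adjusted p = 0.0115, and 0.0511 without OHT_16h replicate 2). Median ratio scaling brought Eif2ak2 past the threshold at 4 and 8 h too (limma adjusted p = 0.00728 and 0.00298). Eif5a2 had 34.9, 31.7, 29.99 and 34.1 FPKM at 0 h and 28.7, 19.6, 25.6 and 19.0 at 16 h, lower by −0.50 ± 0.16 (limma adjusted p = 0.0493), and by −0.30 with median ratio scaling (limma adjusted p = 0.179). Without OHT_0h replicate 1, 2, 3 or 4, OHT_16h replicate 2 or OHT_16h replicate 4 this call was lost (highest limma adjusted p = 0.166).

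Eif4ebp2 varied between the libraries of each time. It had 21.2, 20.8, 15.9 and 13.7 FPKM at 0 h, 32.2, 27.7, 38.7 and 16.4 at 4 h, 31.2, 26.6, 27.5 and 14.0 at 8 h, and 32.1, 27.5, 30.8 and 14.4 at 16 h. Replicate 4 was the lowest at each time, and the log2 difference at 4 h was 0.63 ± 0.29 (limma adjusted p = 0.281, and 0.0452 with median ratio scaling). The factors with the largest rises in B cells overlapped with 0 h in the fibroblasts. Eif5a had 63.6 ± 4.17 FPKM at 0 h, 63.4 ± 4.22 at 4 h and 71.2 ± 10.9 at 16 h (SD, n = 4 each). Its log2 difference at 16 h was 0.15 (limma adjusted p = 0.443), but 0.35 with median ratio scaling, which passed (limma adjusted p = 0.0385). Eif4a1 had 80.8 ± 6.18, 79.9 ± 2.57 and 83.3 ± 10.7 FPKM at 0, 4 and 16 h. Eif4g1 had 72.8 ± 7.26, 80.5 ± 9.86 and 69.6 ± 8.08 at the same times. Of the other genes of the pathway, Ppp1r15a, a subunit of the eIF2 alpha phosphatase, passed at 16 h, with 11.3 ± 1.05 FPKM against 15.2 ± 0.442 at 0 h (SD, n = 4 each), a log2 difference of −0.42 (limma adjusted p = 0.042).

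The fibroblast values have a narrow range at the top. The highest value of any gene was 138.6 to 200.6 FPKM per total RNA library, Actb was at 100.9 to 140.2, and Eef1a1 was 1.97 to 2.73 times the median member, whereas it was 51.8 to 125 times the median member in the B cell files. The cause was not tested. Levels are therefore not compared between the cell types, and differences of abundant factors in fibroblasts are those of the deposited scale.

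**Figure D3:**
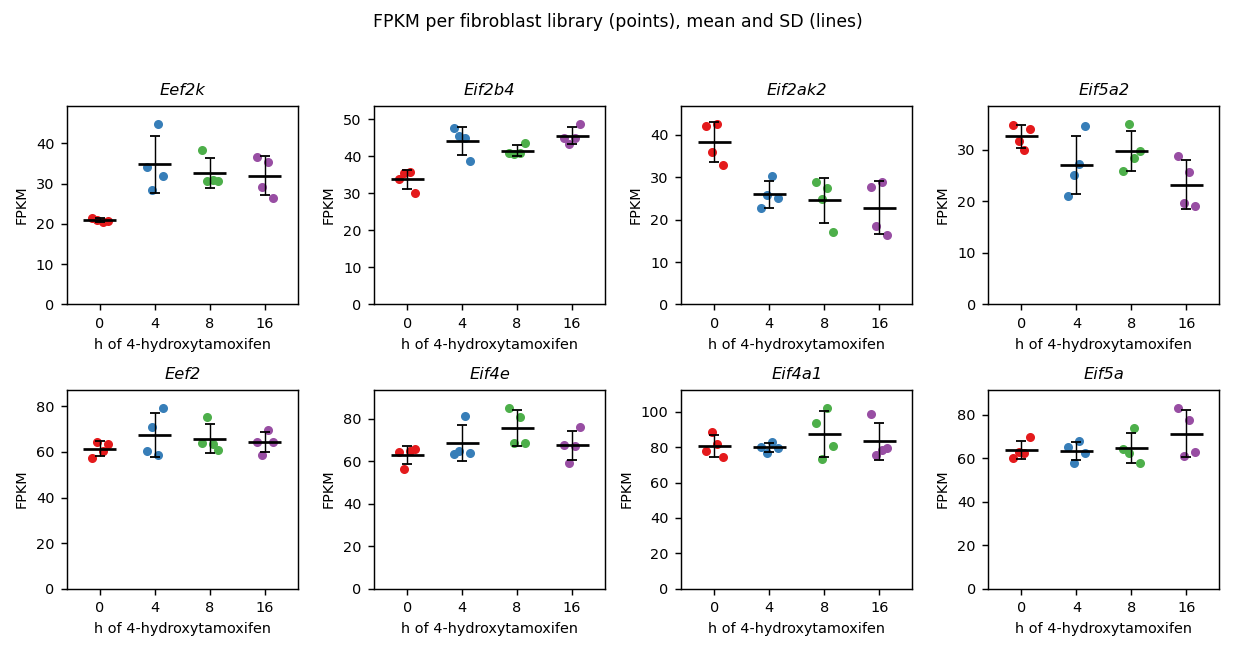
FPKM of 8 members in each total RNA fibroblast library (points) with the mean and SD (lines) after 0, 4, 8 and 16 h of OHT, 4 libraries per time, each panel starting at 0. Eef2k and Eif2b4 lie above and Eif2ak2 below their 0 h values in every OHT library, while Eef2, Eif4a1 and Eif5a overlap with 0 h at each time and Eif4e overlaps at 4 and 16 h but not at 8 h.

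Eef2k and Eif2b4, the members called higher in total RNA at 4 h, had the highest log2 ratios in newly made RNA. By size, Eif4ebp2 came before Eif2b4 in total RNA (log2 differences of 0.63 and 0.38) but was not called. With 1 library per time there is no test and no replicate check. Eef2k was at 17.8 FPKM at 4 h and 8.69 at 0 h, a log2 ratio of 0.99, and Eif2b4 at 17.4 and 11.2, a log2 ratio of 0.61. They were the only members of the 59 past a 1.5-fold rise, and 0 were past a 1.5-fold fall, beside 4.83% and 3.52% of 12375 genes. With median ratio scaling 1 member passed. These counts did not stand above the shares of all genes. Eif2ak2 had the lowest ratio, at 8.79 FPKM at 4 h and 12.3 at 0 h (log2 ratio −0.46). Eif4ebp2 (0.53) and Eef1e1 (0.48) came next on the upper side. Of the 59 members 51 had a ratio above 0, as did 6665 of 12375 genes. The median was 0.10 for the members against 0.02 over all genes, on a scale set by 2 libraries.

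**Figure D4:**
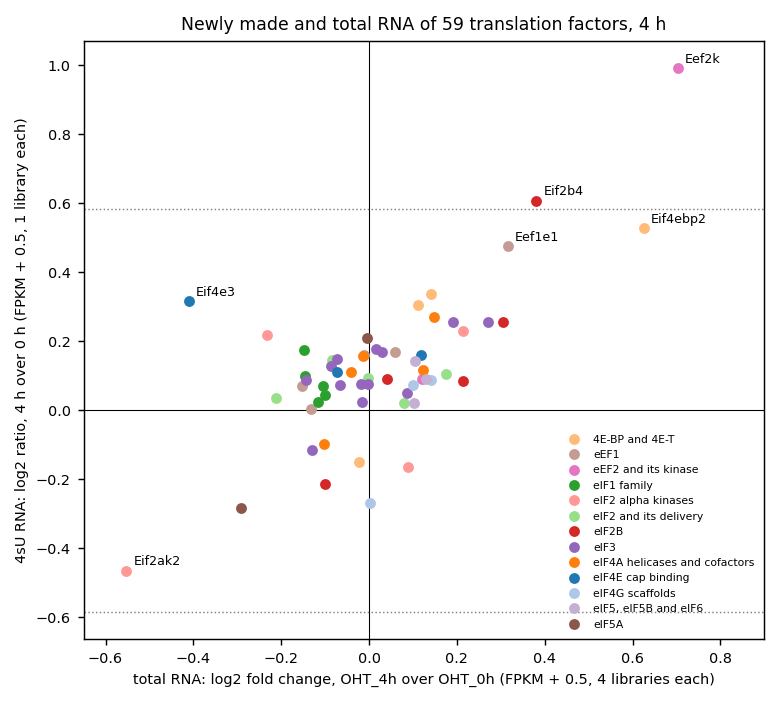
Each point is 1 of 59 members, with the log2 fold change in total RNA at 4 h over 0 h on the x axis (4 libraries each) and the log2 ratio in 4sU RNA at 4 h over 0 h on the y axis (1 library each), both of FPKM + 0.5. Eef2k, Eif2b4 and Eif4ebp2 lie farthest to the upper right, with Eef1e1 nearer to 0, Eif2ak2 lies at the lower left, and Eif4e3 at the upper left (−0.41 in total RNA and 0.32 in 4sU RNA).

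Within a time point, some pairs of fibroblast factors varied together from library to library, although the members as a whole did so less than all genes by the median. The deviations of log2 values from the mean of each time were compared for the 37 members with a mean of at least 40 FPKM, a level and a correlation limit set after the data were seen. Of 666 pairs 23 had a Pearson r of at least 0.9 over 16 libraries (3.45%), compared with 2.36% of the pairs among all 2598 genes at this level. The median r was lower for the members, at 0.159, than for all genes, at 0.266, and of the 36 pairs among 9 members of lower level 0 reached the limit (2.24% of all gene pairs there). The highest was Eif2s3x with Eif3m at 0.997. The ratio of Eif3m to Eif2s3x kept within 1.55 to 1.61 in the 16 total RNA libraries, while Eif3m itself ran over 82.1 to 124.9 FPKM, and it was 1.06 in both 4sU libraries. Whether a step before deposit set such near-constant ratios was not tested. Eif3l with Eif4a1 (0.986), Eif3g with Eif4a3 (0.984), Eef2 with Eif4h (0.979), Eif3e with Eif5 (0.976) and Eif4g1 with Eif6 (0.973) followed. In the B cell files 21 of 1830 pairs reached this limit (1.15%, and 0.576% among all genes). The pairs share libraries and scale, so they are a description with no test.

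**Figure D5:**
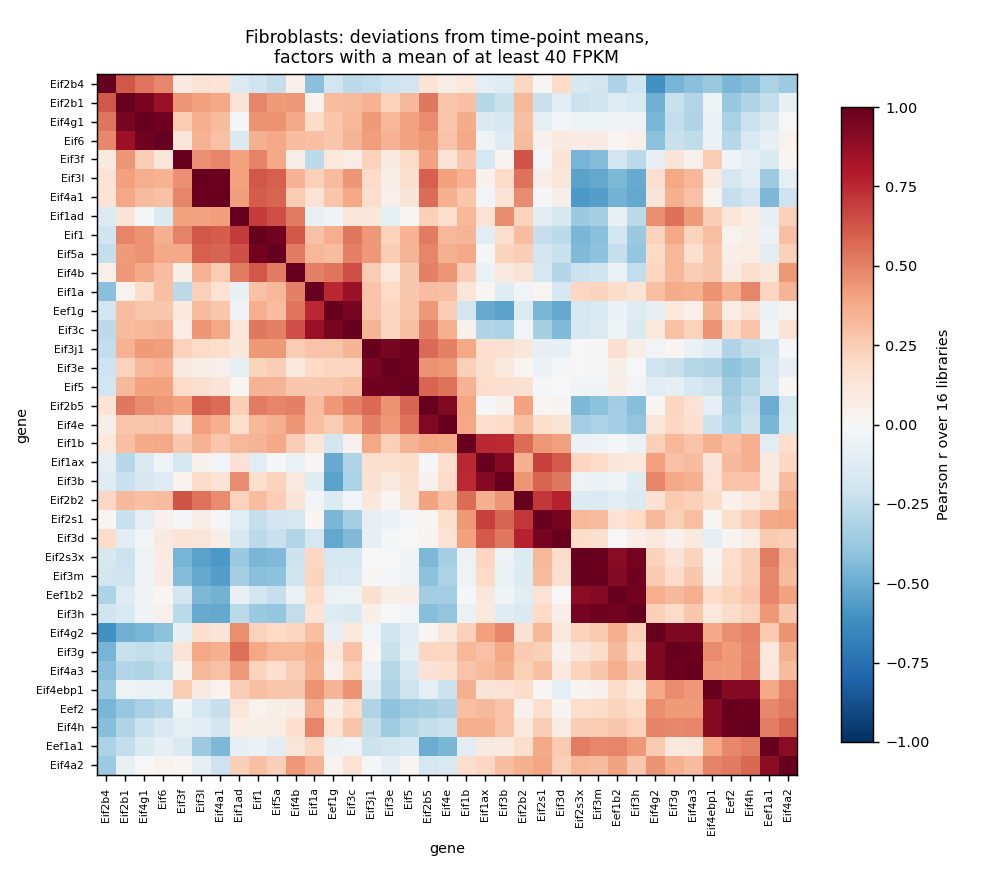
Pearson r over 16 libraries, as a colour scale, between the deviations from time-point means of the 37 members with a mean of at least 40 FPKM in the total RNA fibroblast libraries, ordered by likeness on both axes. Small blocks along the diagonal hold the pairs with high r, such as Eif2s3x with Eif3m at 0.997 and Eif3l with Eif4a1 at 0.986.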

How the data were processed

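RNA was sequenced in 29 mouse libraries, 11 of B cells and lymph node tissue, 16 of fibroblast total RNA and 2 of 4sU-labelled fibroblast RNA. FPKM per gene and library are the deposited values. The submitters' processing notes name TopHat2 2.0.8, TopHat, SAMtools, HTSeq 0.5.3p9 and the mm9 build. The gene annotation, strand setting and treatment of shared reads are not given in the sources used here. Depth is not stated, and the denominators in the report were inferred from the spacing of low values with gene lengths of GENCODE M21, so no counting interval is given.

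Groups follow the labels. Values were tested as log2(FPKM + 0.5), a scale that understates the change of low genes, with limma 3.58.1 (trend and robust, R 4.3.3) and Benjamini-Hochberg adjustment over all genes that passed a filter of 1 FPKM, required in a number of libraries equal to the size of the smaller group. A B cell comparison used only its pair of groups, and all 16 total RNA fibroblast libraries shared a fit. Ratios within libraries were compared by two-sided exact permutation tests (SciPy 1.17.1). The 4sU libraries, 1 per time, were compared by a 1.5-fold limit. Tables and plots used Python 3.11.15, NumPy 2.4.6, pandas 2.3.3 and Matplotlib 3.10.9.

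Every member is accounted for. Values in every library, or their range, are given for the 4 called members with the largest rise and the 4 with the largest fall per comparison (mean of at least 5 FPKM), the most abundant member of each role class, the ratio pairs, and Eif5a, Eif5a2, Eef1a2, Eif2s3x and Eif2s3y. Of the pathway lists, the genes named are some of the 2 called genes with the lowest adjusted p per list and comparison, and others of these are not named. Other members named with values were chosen after these were seen. The members, lists and rule were chosen with earlier results of these data known. The level bands, the covariation limits, the motif search and the depth estimate were chosen after the data were seen. The comparison was tested on simulated data: with 14021 genes, 35% and 72% of genes changed by 1 and 2 log2 units were recovered for Tg_spleen against WT_spleen, and with 12934 genes 81% and 100% for OHT_4h against OHT_0h. Each share is of 100 changed genes, and beside each 8 unchanged genes were called. Alternatives were another pseudocount, filter, scaling, variance model, choice of groups in the fit, leave-one-out fits and a replicate block.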

Additional observations from a re-analysis of the deposited data

Results flagged for a closer look

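Of 180 member and group combinations with 4 libraries, 13 held a library that lay far from the other 3 by Dixon's 95% critical value for 4 samples, and chance flags about 1 in 20 groups. In Tg_spleen, Eif3k was at 2760 FPKM in replicate 5, against 1825 to 1969 in the others, and Eif4g2 was at 2370 FPKM in replicate 4, against 1490 to 1638. In WT_spleen, Eif2ak3 was at 419.6 FPKM in replicate 4 (480.3 to 492.5 in the others), and Eif4ebp1 was at 112 FPKM in replicate 3 (64.6 to 70.5). Eif5a2 was at 40.7 FPKM in WT_spleen replicate 6 (29 to 30.4), and Eif2c4 at 34.4 FPKM in WT_spleen replicate 3 (41.9 to 42.6). At 0 h of OHT, Eif2s3y was listed at 0.746 FPKM in replicate 4 (0.166 to 0.239), which is under the filter, and Eif4e at 56.5 FPKM in replicate 2 (64.57 to 65.63). At 4 h, replicate 3 held 83.31 FPKM of Eif2b5 (61.88 to 62.66) and 81.5 FPKM of Eif4e (63.63 to 65.12), and replicate 1 held 48.52 FPKM of Eef1b2 (58.57 to 59.21). At 8 h, Eef2k was at 38.34 FPKM in replicate 1 (30.65 to 30.87), and Eif2b4 at 43.72 FPKM in replicate 4 (40.8 to 40.98).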

How the results depend on the processing

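No called result changed sign. Of 201 single-member results 37 were called, and only these could lose a call. Against WT_spleen, 6 of 16 such calls in Tg_spleen and 12 of 14 in Tg_lymphnode held in every fit that left out a library. In fibroblasts 1 of 2 held at 4 h, 0 of 1 at 8 h and 2 of 4 at 16 h. Of 3664 alternative values for the 201 results 3469 kept their side of the threshold, 150 lost a call and 45 gained one. Among these values 238, in 76 results, had the other sign, with 0 of them called: Eif2s3y in Tg_spleen against WT_spleen ran from −9.24 to 4.65 and Eif2c4 in Tg_lymphnode against WT_spleen from −1.54 to 0.35. For ratios, leaving out 1 library cannot move the value by the larger group SD, the limit that was set, so no count is drawn from it. Over the alternatives, the log2 difference of Eif4a1 over Eif4a2 ran from 1.02 to 1.39 in Tg_spleen against WT_spleen. In the same comparison Eif4g1 over Eif4g2 ran from 0.33 to 0.47, Eif4ebp1 over Eif4ebp2 from 0.22 to 1.02 and Eef1a1 over Eef2 from −0.04 to 0.20. In Tg_spleen against WT_spleen, leaving out each library gave 19 to 39 members higher and 0 to 3 lower. Lower members numbered 1 with no filter and 0 in the fit of all B cell groups, 16 were higher and 1 lower in the high Rpph1 libraries, and 23 higher and 1 lower in the low ones. In Tg_lymphnode, leaving out each library gave 20 to 26 higher and 2 to 5 lower against WT_spleen, and 0 to 1 lower against Tg_spleen, where the fit of all B cell groups gave 2. For OHT against 0 h, leaving out each library gave 1 to 2 higher at 4 h, 0 to 1 higher at 8 h, and 2 higher with 0 to 4 lower at 16 h, 0 being without OHT_16h replicate 2 and 4 without OHT_16h replicate 1. The fit of 2 groups gave 1 higher and 1 lower at 4 h, 1 lower at 8 h and 1 lower at 16 h. Median ratio scaling gave 1 lower at 4 h, 1 at 8 h and 1 at 16 h, with 5 higher at 16 h and 1 higher in 4sU RNA. Quantile normalization gave 1 lower at each of 4, 8 and 16 h. At 16 h a pseudocount of 0.1, no filter, and no trend or robust step each gave 1 lower. The cause was not tested.

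No label says that equal replicate numbers mark a shared source. Deviations of same-numbered libraries correlated at −0.021 to 0.129 in B cells and 0.017 to 0.465 in fibroblasts, where against 0 h every number but 3 was over 0.1 at each time. Of 8 fibroblast libraries 3 to 6 correlated best with their own number, a hint from the data and not the design. With a replicate block on shared numbers, which keeps few libraries, 4 members were higher and 0 lower in Tg_spleen and 0 higher and 0 lower in Tg_lymphnode against WT_spleen. In fibroblasts the block gave 3 higher and 1 lower at 4 h, 1 higher and 1 lower at 8 h, and 3 higher and 3 lower at 16 h. With it Eif4ebp2 passed at 4 h (limma adjusted p = 0.00527) and 16 h (limma adjusted p = 0.0186). Quantile normalization with the block gave 6 higher and 2 lower at 4 h, 4 and 1 at 8 h and 7 and 3 at 16 h. Median ratio scaling with the block gave 7 and 1, 4 and 1, and 10 and 3. These combined settings were chosen after seeing the data. Depth is not stated, so what it limits is unknown.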
